A study of Homo sapiens with 6 samples.

Results

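Receptor tyrosine kinases linked to drug tolerance in melanoma were followed in A375, an established human melanoma cell line. The 10 receptors were AXL, EGFR, ERBB2, ERBB3, PDGFRA, PDGFRB, KIT, MET, IGF1R and FGFR1, chosen by gene name because they are known in drug tolerance, and each had 1 row among the 57914 genes of the deposited tables. A375 cells, grown in high-glucose DMEM with serum, had been stained with Aldefluor, a substrate that fluoresces in cells with active aldehyde dehydrogenase (ALDH), and sorted by flow cytometry. ALDH_High is the top 5% of the Aldefluor signal and ALDH_Low the bottom 5%, with 3 RNA-seq libraries each, numbered as replicates 1 to 3. The labels give no drug, genotype change or time point for either group, so both hold the same cell line and differ in the sorting gate. The labels do not say whether the replicates came from separate cultures or sorts, and p-values then measure only the spread between these libraries, which may be technical.

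As background, receptor tyrosine kinases span the cell membrane. Ligand binding joins receptors into pairs, the kinase domains phosphorylate tyrosines, and adaptor proteins dock there to switch on the RAS-MAPK and PI3K-AKT pathways. In melanoma with an activating BRAF mutation, which A375 carries, high AXL, EGFR, PDGFRB or MET has been described in dedifferentiated cells that tolerate BRAF and MEK inhibitors, and ERBB3 and IGF1R have been described as other routes to renewed signalling under these drugs.

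Of the 10 receptors, 9 had enough reads to be tested and 7 of these differed between the sorted groups. ERBB3 and IGF1R were higher in ALDH_High. EGFR, MET, PDGFRB, FGFR1 and AXL were lower in ALDH_High. ERBB2 and PDGFRA did not pass the test, and KIT was at or below 1 count in every library. A gene was called when its adjusted p was below 0.05 in edgeR's quasi-likelihood test, adjusted by Benjamini-Hochberg across the 17047 genes tested. By that rule 20.6% of all genes tested were called, 10.8% as higher and 9.83% as lower in ALDH_High. The groups did not overlap in CPM (read counts scaled to library size, with TMM factors) in 7 of the 9 receptors, against 37.8% of all genes tested. The median log2 fold change of the 9 was -0.55, beside -0.013 for all genes tested.

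Total counts lay between 26692868 and 37830603 per library. ALDH1A3, the gene in the study's title, checked the sort: it was higher in ALDH_High (edgeR log2 fold change 1.32 with SE 0.19, adjusted p 0.000734). It had 683, 1149 and 1088 CPM in ALDH_High replicates 1, 2 and 3 and 345, 420 and 403 CPM in ALDH_Low. ALDH_High replicate 1 was thus well below the other ALDH_High libraries. The second principal component of log2 CPM set ALDH_High replicate 1 apart, at 49.1 against -22.0 and -32.5 for replicates 2 and 3. SOX10, a melanocyte lineage factor, lay between 366 and 447 TPM in ALDH_High and between 102 and 116 TPM in ALDH_Low (TPM scales reads to library size and gene length). Of 9 melanocyte lineage markers 5 were tested: SOX10 and S100B were higher in ALDH_High, MITF was lower (log2 fold change -0.92, edgeR adjusted p 0.00667), and PMEL and PAX3 did not pass. The pigment genes MLANA and TYR had at most 3 counts in any library. PTPRC, a general white blood cell gene, and CD3E, a T cell gene, had at most 4 counts. The summed TPM of the 7 white blood cell markers was nevertheless lower in ALDH_High, from 14.5 to 27.1 against 50.2 to 63.2, and its part in the receptor results was not tested. CD68, the most abundant of them, was lower at 19.2, 17.1 and 10.9 TPM against 58.9, 61.2 and 47.2 TPM (edgeR adjusted p 0.000273), CD14 was lower (log2 fold change -1.96, edgeR adjusted p 0.0142) and LYZ was higher (1.65, edgeR adjusted p 0.0240). In bulk RNA, fewer cells expressing a receptor and less receptor RNA per cell cannot be told apart.

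The sequences just before the transcription start are shown for EGFR, MET, AXL and IGF1R, because these receptors moved in opposite directions and the 250 bases before their starts hold no annotated exon. They come from RefSeq (GRCh38.p14) and lie at chr7:55018767-55019016 for EGFR, chr7:116671946-116672195 for MET, chr19:41218973-41219222 for AXL and chr15:98648289-98648538 for IGF1R, all on the plus strand and written 5′ to 3′, and capitals mark the letters GGGCGG (the GC box) on either strand. ERBB3 and FGFR1 were not matched in that table.
EGFR: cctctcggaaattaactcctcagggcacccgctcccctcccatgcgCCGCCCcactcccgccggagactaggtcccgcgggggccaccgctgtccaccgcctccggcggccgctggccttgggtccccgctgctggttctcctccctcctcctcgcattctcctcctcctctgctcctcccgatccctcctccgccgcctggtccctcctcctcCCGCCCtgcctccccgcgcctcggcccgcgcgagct
MET: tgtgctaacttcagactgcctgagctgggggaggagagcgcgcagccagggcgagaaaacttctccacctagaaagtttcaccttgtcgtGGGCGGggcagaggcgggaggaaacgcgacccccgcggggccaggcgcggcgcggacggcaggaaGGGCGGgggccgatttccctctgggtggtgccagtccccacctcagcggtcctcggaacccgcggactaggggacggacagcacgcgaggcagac
AXL: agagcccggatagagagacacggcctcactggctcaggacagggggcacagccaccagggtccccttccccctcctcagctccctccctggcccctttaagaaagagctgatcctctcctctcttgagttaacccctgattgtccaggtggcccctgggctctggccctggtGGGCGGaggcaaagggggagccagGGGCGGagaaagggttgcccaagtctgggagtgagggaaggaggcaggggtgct
IGF1R: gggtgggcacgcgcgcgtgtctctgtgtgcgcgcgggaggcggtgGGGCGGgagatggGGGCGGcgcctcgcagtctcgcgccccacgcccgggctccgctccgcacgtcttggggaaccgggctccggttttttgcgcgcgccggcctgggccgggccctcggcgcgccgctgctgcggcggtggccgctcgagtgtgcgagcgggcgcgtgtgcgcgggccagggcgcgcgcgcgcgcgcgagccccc
All 4 windows held 2 GC boxes. The motif was found, in any number, in 42.6% of the 35116 promoter windows of the same length. The share of windows with 2 is not given here. Their GC content was 73.6% for EGFR, 68.4% for MET, 64.4% for AXL and 81.2% for IGF1R, beside a median of 58.0% over all windows. No match on either strand was found in the 4 windows for TGANTCA (AP-1, in 6.57% of all windows), GGAATG (TEAD, 11.9%), CACGTG (E-box, 6.34%) or ACAAAG (SOX, 13.7%). The letters GGGCGG were present before IGF1R, the only higher receptor shown, and before EGFR, MET and AXL, which were lower.

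The ERBB receptors diverged. ERBB3 (ENSG00000065361, chromosome 12, 56076799 to 56103505, GRCh38), a receptor for neuregulins whose own kinase is weak and which signals by pairing with other ERBB receptors, had 86.9, 79.5 and 99.5 TPM in ALDH_High replicates 1, 2 and 3. In ALDH_Low the values for ERBB3 were 10.5, 9.27 and 15.8 TPM. Every ALDH_High library lay above every ALDH_Low library, and ALDH_Low replicate 3 was the highest of its group. The log2 fold change of ERBB3 was 2.84 (SE 0.21, edgeR adjusted p 1.83e-05), a 7.18-fold difference, and it was called under all 15 alternatives. A coding gene, ENSG00000257411, shares exons with ERBB3 on the same strand and had at most 400 counts in a library, so the division of reads between them is uncertain.

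EGFR (ENSG00000146648, chromosome 7, 55019017 to 55211628), the receptor for EGF-type ligands, went the other way. It had 2.03, 2.71 and 3.03 TPM in ALDH_High replicates 1, 2 and 3 and 9.64, 9.80 and 6.28 TPM in ALDH_Low. The groups did not overlap, with ALDH_Low replicate 3 the lowest of its group. EGFR had a log2 fold change of -1.78 (SE 0.18, edgeR adjusted p 9.05e-05), which is 3.42-fold lower, and all 15 alternatives kept the call. ERBB2 (ENSG00000141736, chromosome 17), which binds no ligand of its own and is the main partner of the other ERBB receptors, had 23.5, 21.0 and 19.7 TPM in ALDH_High and 21.3, 19.5 and 16.6 TPM in ALDH_Low. The ERBB2 ranges overlapped, and its log2 fold change was 0.12 (SE 0.14, edgeR adjusted p 0.616). The exons of MIEN1 and PGAP3 overlap those of ERBB2 on the other strand.

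Ratios within a library do not depend on how libraries are scaled; these pairs were chosen after the values were seen and were given no test. The ratio of ERBB3 to EGFR TPM was 42.8, 29.3 and 32.8 in ALDH_High and 1.09, 0.946 and 2.51 in ALDH_Low. ERBB3 RNA thus stood far above EGFR RNA in every ALDH_High library and near it in ALDH_Low. The ratio of AXL to ERBB3 TPM was 1.35, 1.95 and 1.45 in ALDH_High and 18.3, 24.95 and 10.4 in ALDH_Low.

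**Figure D1:**
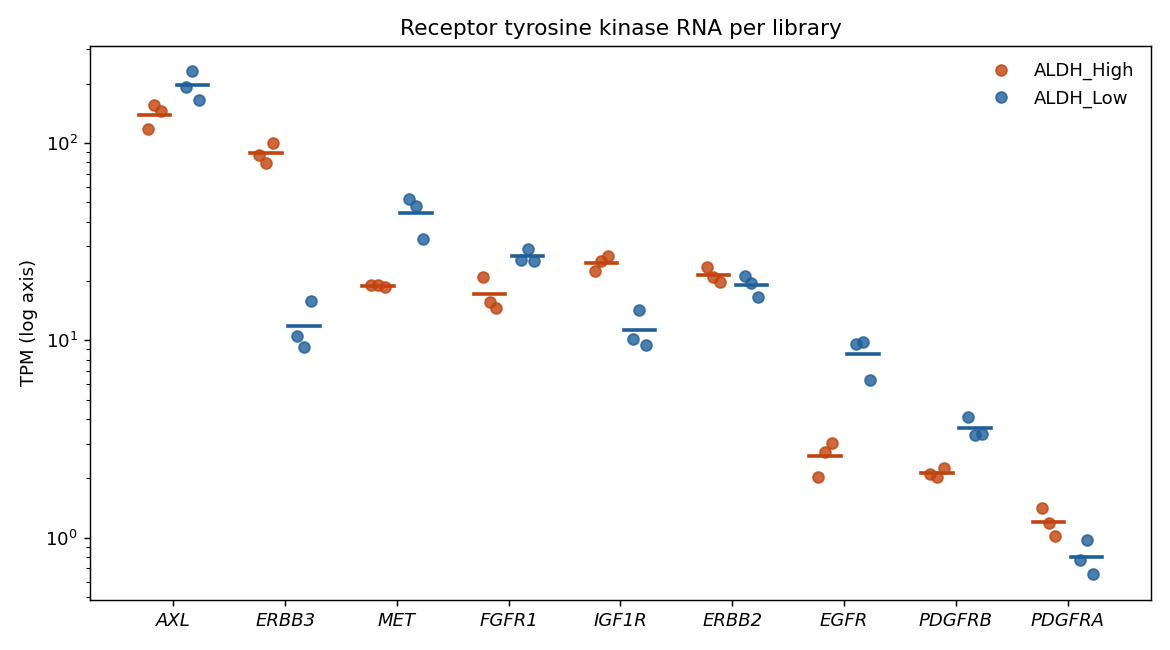
TPM (log axis) of 9 receptors in the 3 ALDH_High and the 3 ALDH_Low libraries; each point is a library, drawn from replicate 1 to 3 from left to right, and each line is the group mean. ERBB3 lies between 79.5 and 99.5 TPM in ALDH_High and between 9.27 and 15.8 TPM in ALDH_Low, while EGFR and MET lie lower in ALDH_High; KIT is left out because it is at most 0.0129 TPM.

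AXL (ENSG00000167601, chromosome 19, 41219223 to 41261766), the receptor for GAS6, had the highest mean of the 10 receptors in both groups. It had 118, 155 and 145 TPM in ALDH_High replicates 1, 2 and 3 and 192, 231 and 165 TPM in ALDH_Low. The groups did not overlap, but ALDH_High replicate 2 and ALDH_Low replicate 3 lay close together. The log2 fold change of AXL was -0.55 (SE 0.13, edgeR adjusted p 0.0137), which is 1.46-fold lower. It was called under 10 of 15 alternatives: the adjusted p was 0.0510 without ALDH_High replicate 3, 0.0629 without ALDH_Low replicate 2, and between 0.0761 and 0.162 with limma on log2 TPM.

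MET (ENSG00000105976, chromosome 7, 116672196 to 116798377), the receptor for hepatocyte growth factor, had 19.1, 19.1 and 18.7 TPM in ALDH_High and 52.3, 48.0 and 32.6 TPM in ALDH_Low. The ALDH_High libraries were almost equal, and all lay below the lowest ALDH_Low library, replicate 3. For MET the log2 fold change was -1.27 (SE 0.16, edgeR adjusted p 0.000338), which is 2.41-fold lower, and it was called under all 15 alternatives. MET and EGFR both lie on chromosome 7, where the 518 other genes averaging 5 CPM or more had a median log2 fold change of 0.011. Within 5 Mb of EGFR the median was 0.080 over 12 genes, and within 5 Mb of MET it was -0.021 over 16 genes.

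IGF1R (ENSG00000140443, chromosome 15, 98648539 to 98964530), the receptor for insulin-like growth factors, was the other receptor that was higher in ALDH_High. It had 22.4, 25.3 and 26.7 TPM in ALDH_High and 10.1, 14.2 and 9.44 TPM in ALDH_Low. No ALDH_Low library reached the lowest ALDH_High library. IGF1R differed by a log2 fold change of 1.09 (SE 0.15, edgeR adjusted p 0.000564), a 2.12-fold difference that was called under all 15 alternatives. IGF1R lies on the chromosome of ALDH1A3. The 362 other genes there with a mean of at least 5 CPM had a median log2 fold change of 0.014. Within 5 Mb of IGF1R the median was 0.14 over 16 genes, and its part in the IGF1R value was not tested.

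FGFR1 (ENSG00000077782, chromosome 8, 38400215 to 38468834), a receptor for fibroblast growth factors, had 21.0, 15.6 and 14.7 TPM in ALDH_High and 25.6, 29.0 and 25.3 TPM in ALDH_Low. ALDH_High replicate 1 lay nearest to the ALDH_Low group, though without overlap. The log2 fold change of FGFR1 was -0.68 (SE 0.17, edgeR adjusted p 0.0210). The call was lost without ALDH_High replicate 2 (adjusted p 0.0932), ALDH_High replicate 3 (0.0771), ALDH_Low replicate 2 (0.0768) or ALDH_Low replicate 3 (0.0660), while without ALDH_High replicate 1 the log2 fold change was -0.90 (adjusted p 0.000510). LETM2 shares exon sequence with FGFR1 on the other strand and had at most 506 counts.

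The platelet-derived growth factor receptors were low. PDGFRB (ENSG00000113721, chromosome 5, 150113839 to 150155872) had 2.10, 2.04 and 2.26 TPM in ALDH_High and 4.09, 3.32 and 3.37 TPM in ALDH_Low, without overlap. For PDGFRB the log2 fold change was -0.80 (SE 0.17, edgeR adjusted p 0.00693), which is 1.74-fold lower, and the call was lost in limma on log2(TPM + 1), at adjusted p 0.0524 with a TPM filter and 0.123 without. PDGFRA (ENSG00000134853, chromosome 4) had 1.41, 1.19 and 1.02 TPM in ALDH_High and 0.772, 0.980 and 0.652 TPM in ALDH_Low. ALDH_Low replicate 2 came close to ALDH_High replicate 3 in TPM and overlapped it in CPM, and the log2 fold change of PDGFRA was 0.55 (SE 0.29, edgeR adjusted p 0.236). Fibroblasts also carry these receptors: the 6 fibroblast markers summed to between 8.58 and 11.7 TPM in ALDH_High and between 5.87 and 7.48 TPM in ALDH_Low. The log2 fold changes were -0.34 for COL1A1 (edgeR adjusted p 0.395), -0.10 for COL1A2 (0.948), 0.72 for LUM (0.0718) and 1.30 for DCN (0.0656), and the part of these markers in the values of PDGFRB and PDGFRA was not tested.

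KIT (ENSG00000157404, chromosome 4, 54657267 to 54740783), the receptor for stem cell factor and a melanocyte growth receptor, had counts of 0, 0 and 1 in ALDH_High and 0, 1 and 1 in ALDH_Low. All were at or below the floor of 3 counts a library, which amounts to between 0.0777 and 0.118 CPM and covers counting error only. No fold was computed for KIT, and a difference was not detectable at this depth.

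**Figure D2:**
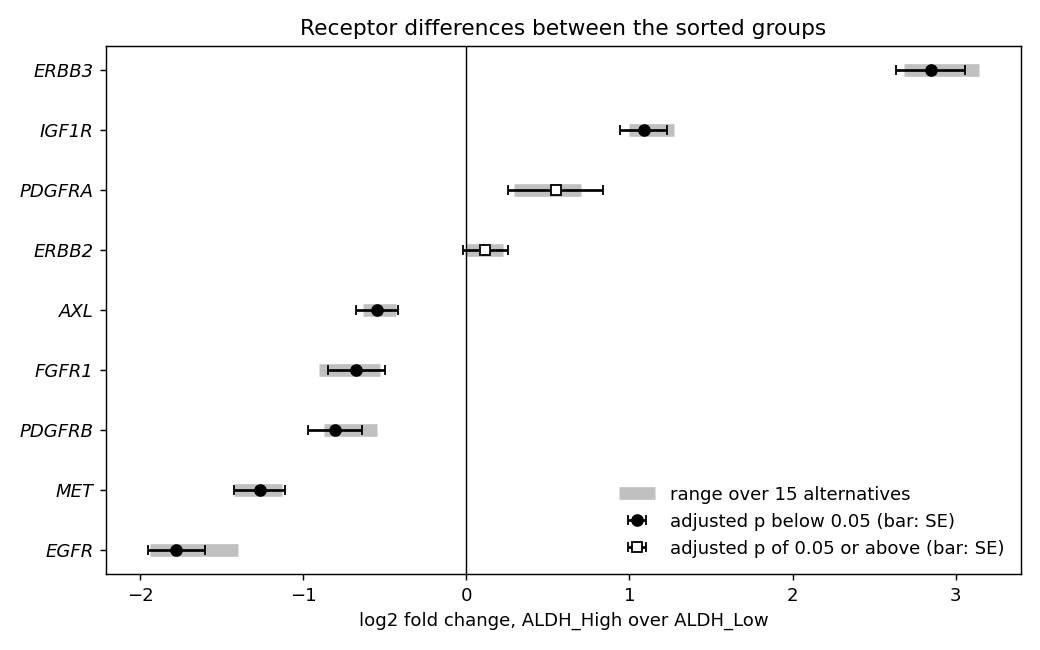
Log2 fold change of the 9 tested receptors, ALDH_High over ALDH_Low, with the SE as a black bar; the grey bar spans the 15 alternative analyses, and filled circles have an adjusted p below 0.05 in edgeR. ERBB3 (2.84) and IGF1R (1.09) lie to the right, EGFR (-1.78) and MET (-1.27) farthest to the left, and the alternatives for ERBB2 span 0.

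The order of the receptors by TPM differed between the groups. In ALDH_High it ran AXL, ERBB3, IGF1R, ERBB2, MET, FGFR1, EGFR, PDGFRB, PDGFRA and KIT, and 3 neighbouring pairs had overlapping libraries: IGF1R with ERBB2, MET with FGFR1, and EGFR with PDGFRB. In ALDH_Low it ran AXL, MET, FGFR1, ERBB2, ERBB3, IGF1R, EGFR, PDGFRB, PDGFRA and KIT, with overlap between ERBB3 and IGF1R and between IGF1R and EGFR. ERBB3 therefore moved from the fifth place in ALDH_Low to the second in ALDH_High, and MET from the second to the fifth.

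The summed TPM of the 10 receptors lay between 296 and 330 in ALDH_High and between 275 and 365 in ALDH_Low, so the totals overlapped. The shares of ERBB2 and KIT overlapped as well. AXL made up 43.9 ± 4.25% of the sum in ALDH_High and 60.7 ± 2.32% in ALDH_Low (SD, n = 3). ERBB3 made up 28.1 ± 2.92% and 3.83 ± 1.69%, and MET 6.01 ± 0.393% and 13.7 ± 2.13% (SD, n = 3). The share of IGF1R was 7.84 ± 0.263% among ALDH_High libraries, against 3.48 ± 0.399% among ALDH_Low libraries (SD, n = 3). These shares are a description, with no test.

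**Figure D3:**
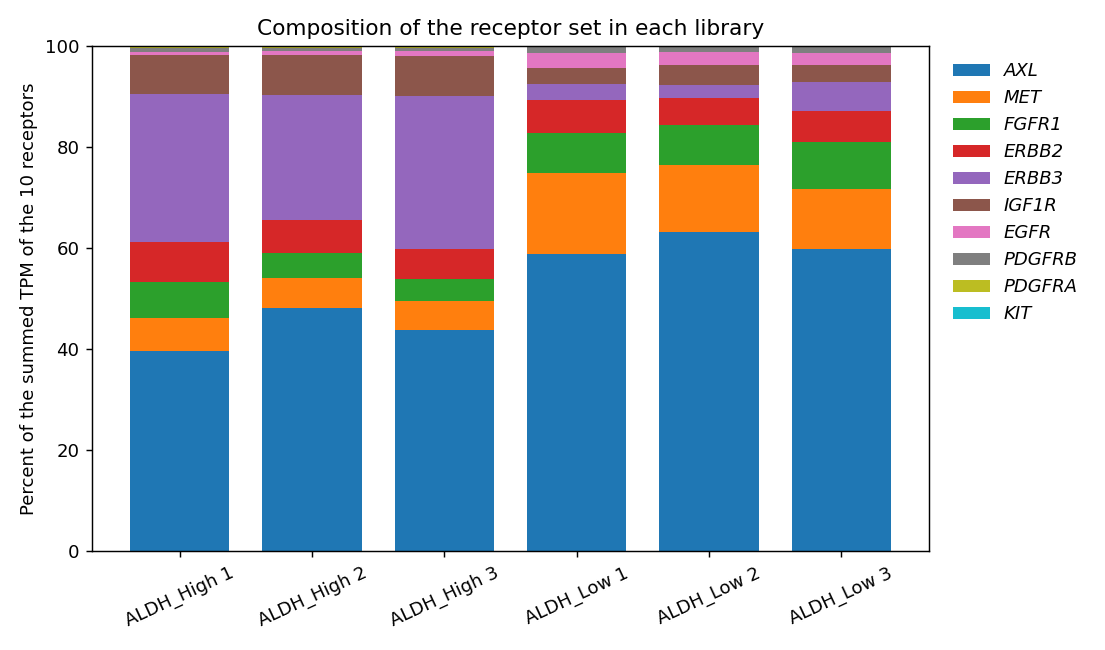
Share of the summed TPM of the 10 receptors (percent, vertical axis) taken by each receptor in each of the 6 libraries. ERBB3 takes 28.1% on average in ALDH_High and 3.83% in ALDH_Low, and AXL 43.9% and 60.7%.

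In the authors' deposited table, whose DESeq2 coefficients set each group against a group named 1A3, ERBB3 has log2 coefficients of 0.84 for the high and -2.03 for the low group. The same authors' deposited table gives EGFR -0.19 and 1.57, MET -0.17 and 1.07, and IGF1R 1.05 and -0.058. For AXL the authors' deposited table holds 0.30 and 0.82, both above 0, and for PDGFRB 0.82 and 1.60. These coefficients come from the same high and low libraries and are no separate evidence.

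Ligands listed for the 10 receptors and their families were mostly lower in ALDH_High where they differed. Not every listed ligand binds a member itself, as NRG3 and NRG4 bind ERBB4. Of 29 ligand genes, 20 were tested, 2 were higher and 7 lower, and 11 did not pass, with a median log2 fold change of -0.57; 45.0% were called, beside 20.6% of all genes tested. Among ERBB ligands, TGFA, an EGFR ligand, was the most abundant and was higher in ALDH_High, at 131, 103 and 125 TPM against 74.4, 56.9 and 65.0 TPM (edgeR log2 fold change 0.82 with SE 0.15, adjusted p 0.00346). HBEGF, which binds EGFR and ERBB4, was lower, at 10.9, 12.2 and 11.6 against 32.7, 28.5 and 25.9 TPM (-1.38, SE 0.12, edgeR adjusted p 4.40e-05). Thus EGFR ligands moved in both directions.

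AREG, another EGFR ligand, was lower as well, at 3.71, 4.42 and 2.65 against 11.5, 8.84 and 9.65 TPM (edgeR log2 fold change -1.52 with SE 0.25, adjusted p 0.00191). BTC (-1.58, edgeR adjusted p 0.0177) and the neuregulin NRG2 (-0.98, edgeR adjusted p 0.0198) were also lower, but each kept its call in only 2 of 6 leave-one-out fits. NRG1, the main ligand of ERBB3, had 12.3, 22.8 and 19.2 TPM in ALDH_High and 12.9, 14.99 and 18.5 TPM in ALDH_Low, and its log2 fold change was 0.16 (SE 0.21, edgeR adjusted p 0.652). The NRG1 ranges overlapped, in contrast to those of ERBB3. EGF (0.42, edgeR adjusted p 0.462), EREG (-0.16, 0.882) and NRG4 (-0.95, 0.417) did not pass, and EPGN and NRG3 had at most 6 counts.

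PDGFA and PDGFC, which bind the PDGF receptors, were lower. PDGFA had 4.22, 4.19 and 4.20 TPM in ALDH_High and 8.57, 12.8 and 8.59 TPM in ALDH_Low (edgeR log2 fold change -1.29 with SE 0.20, adjusted p 0.00128). PDGFC had 2.44, 2.54 and 3.72 against 7.34, 5.42 and 5.52 TPM (-1.13, SE 0.22, edgeR adjusted p 0.00479). PDGFD, a ligand of PDGFRB, was higher (0.79, SE 0.23, edgeR adjusted p 0.0334), but the call held in 1 of 6 leave-one-out fits. PDGFB did not pass (-0.71, edgeR adjusted p 0.398).

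For AXL, the ligands GAS6 (edgeR log2 fold change 0.41 with SE 0.31, adjusted p 0.407) and PROS1 (-0.10, SE 0.18, 0.750) did not pass, and both had overlapping groups. KITLG, the KIT ligand, had -0.60 (SE 0.27, edgeR adjusted p 0.149). HGF, the MET ligand, was at 0 counts in all 6 libraries, which allows up to 3 counts a library. IGF1 and IGF2 had at most 17 counts and were not tested. Of 8 ligands listed for FGFR1, FGF5 was lower (-1.75, SE 0.36, edgeR adjusted p 0.00710). FGF2, the most abundant of the 8, did not pass (0.18, SE 0.18, edgeR adjusted p 0.536), nor did FGF1 (-0.53, 0.365) or FGF23 (-0.20, 0.771).

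**Figure D4:**
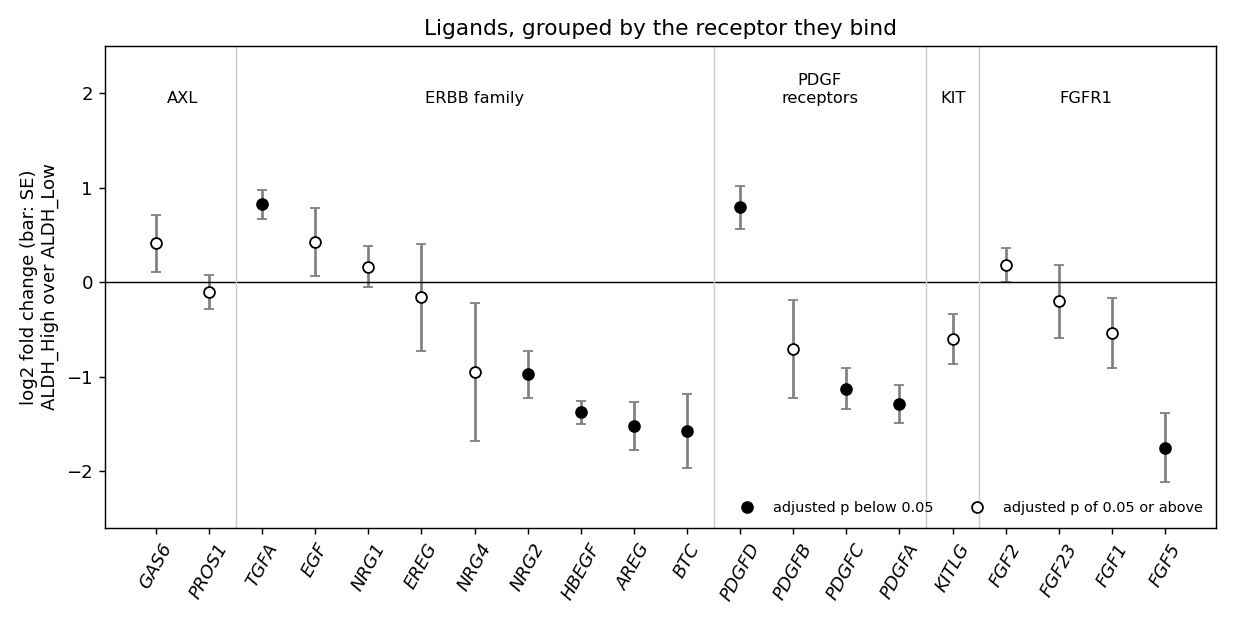
Log2 fold change, ALDH_High over ALDH_Low, of the 20 tested ligand genes, grouped by the receptor or receptor family they bind, with the SE as bars and filled circles for an edgeR adjusted p below 0.05. TGFA (0.82) and PDGFD (0.79) lie above 0 and the 7 other filled circles below it.

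The other receptor tyrosine kinases of the genome moved in both directions. Of 48, 35 were tested, 13 were higher, 8 lower and 14 did not pass. The share called was 60.0%, beside 20.6% of all genes tested. The median log2 fold change was 0.45, beside -0.013 for all genes tested. All 58 receptors summed to between 744 and 786 TPM in ALDH_High and between 685 and 837 TPM in ALDH_Low, and the 10 members made up 39.8% to 42.0% in ALDH_High and 40.1% to 43.6% in ALDH_Low. AXL ranked 1 or 2 of the 58 in every library, with EPHA2 in the other of these ranks, and ERBB3 ranked 3 in every ALDH_High library and between 11 and 15 in ALDH_Low.

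The vascular endothelial growth factor receptors FLT1 and KDR were higher in ALDH_High. FLT1 had 11.9, 16.5 and 18.2 TPM against 0.779, 0.330 and 0.775 TPM (edgeR log2 fold change 4.55 with SE 0.29, adjusted p 7.30e-06). KDR had 2.82, 2.52 and 2.38 against 0.203, 0.105 and 0.293 TPM (3.61, SE 0.33, edgeR adjusted p 5.82e-05). The endothelial markers PECAM1, CDH5 and VWF had at most 35 counts in any library. TIE1, the remaining marker and itself a receptor tyrosine kinase, had up to 138 counts and was lower in ALDH_High (log2 fold change -1.04, edgeR adjusted p 0.0442). The summed TPM of the 4 endothelial markers was 1.19 to 2.38 in ALDH_High and 2.20 to 3.35 in ALDH_Low. FLT1 lies on chromosome 13, whose 184 other genes averaging 5 CPM or more had a median log2 fold change of 0.37, and the part of this in the FLT1 value was not tested.

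The fibroblast growth factor receptors FGFR4 and FGFR3 were higher while FGFR1 was lower. For FGFR3 the log2 fold change was 1.67 (SE 0.25, edgeR adjusted p 0.00106), and FGFR2 did not pass (0.43, edgeR adjusted p 0.581). FGFR4 had 18.3, 16.9 and 21.0 TPM in ALDH_High and 3.38, 2.47 and 3.91 TPM in ALDH_Low (edgeR log2 fold change 2.47 with SE 0.20, adjusted p 2.69e-05), so that its level reached that of FGFR1 in ALDH_High. Ephrin receptors were called in both directions. EPHA3 (1.80, SE 0.14, edgeR adjusted p 2.09e-05), EPHB3 (2.60, edgeR adjusted p 0.000299), EPHA4 (0.75, 0.0277) and EPHB1 (0.63, 0.0372) were higher. EPHA2 (-0.72, edgeR adjusted p 0.000900), EPHB2 (-0.91, edgeR adjusted p 0.00265) and EPHB6 (-1.85, edgeR adjusted p 0.0244) were lower. EPHA4, EPHB1 and EPHB6 each kept the call in only 2 of 6 leave-one-out fits. MST1R, the other receptor of the MET family, was lower like MET, at 0.796, 0.969 and 0.544 against 5.72, 8.63 and 6.16 TPM (-3.19, SE 0.28, edgeR adjusted p 4.30e-05). ROS1 was lower too (-2.66, edgeR adjusted p 0.00439), at no more than 0.169 TPM in any library.

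**Figure D5:**
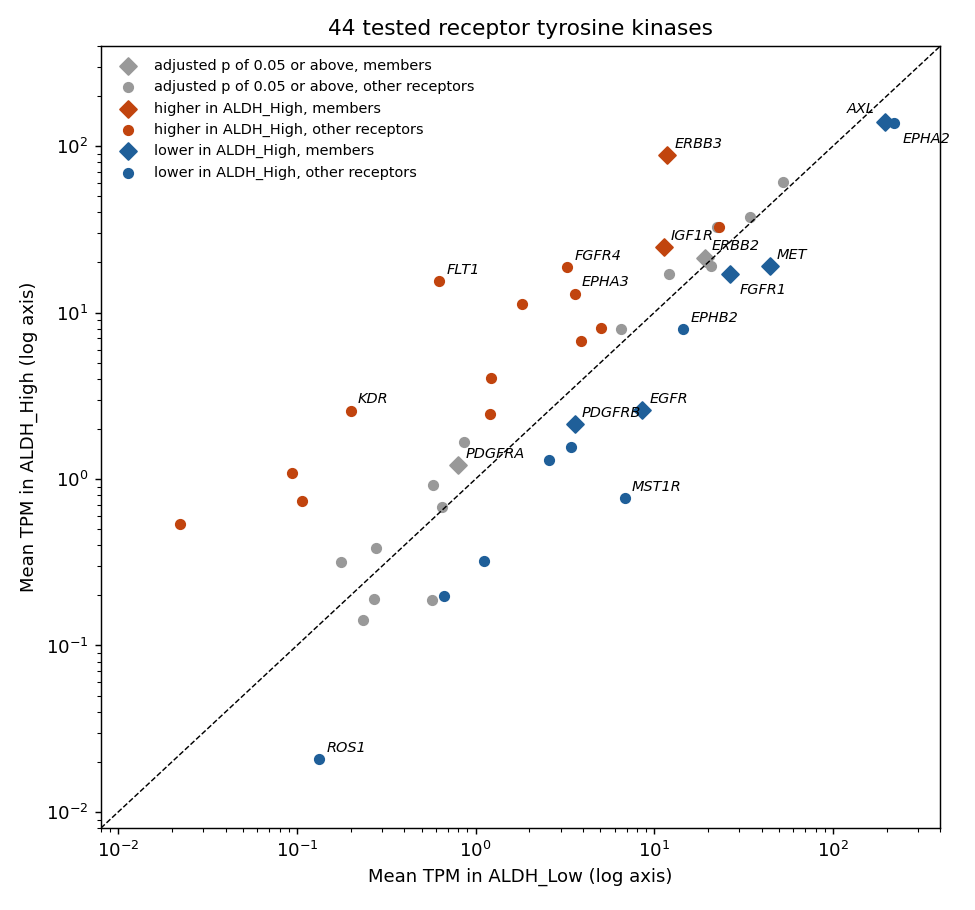
Mean TPM in ALDH_High against ALDH_Low (both log axes) of the 44 tested receptor tyrosine kinases, the 9 tested members as diamonds and 35 others as circles; the dashed line marks equal means, and colour gives the edgeR call. ERBB3 and FLT1 lie above the line, EGFR, MET and MST1R below it, and AXL and EPHA2 at the top right.

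The call rate of adaptors that dock on activated receptors was near that of all genes, at 28.0% beside 20.6%. Of 26 genes of the proximal pathway, 25 were tested, 7 were higher, 0 lower and 18 did not pass, with a median log2 fold change of 0.27. At an unadjusted p below 0.05 in edgeR, 10 were higher and 0 lower, and the DESeq2 Wald test called 9 higher and 0 lower. The shares of all genes under these rules are not given here, so these counts are a description only. IRS2, a docking protein of IGF1R and the insulin receptor, had 29.7, 42.2 and 50.5 TPM in ALDH_High and 23.2, 17.1 and 16.1 TPM in ALDH_Low (edgeR log2 fold change 1.06 with SE 0.17, adjusted p 0.00190), while IRS1 did not pass (-0.33, edgeR adjusted p 0.347). SHC2 (2.92, edgeR adjusted p 0.00386), PLCG1 (0.52, edgeR adjusted p 0.00751) and GAB2 (0.76, edgeR adjusted p 0.00765) were higher too. SHC2 had at most 46 counts in a library, and its log2 fold change was 3.70 without ALDH_Low replicate 1. IRS2 lies on chromosome 13 and PLCG1 on chromosome 20, where the medians of other genes were 0.37 and 0.28.

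Inhibitors of receptor signalling were called at 30.0%, beside 20.6% of all genes tested. Of 21, 20 were tested, 5 were higher, 1 lower and 14 did not pass, with a median of 0.22. SPRY4, a Sprouty inhibitor of the RAS-MAPK pathway, had 66.7, 57.7 and 56.8 TPM in ALDH_High and 9.16, 8.03 and 9.06 TPM in ALDH_Low (edgeR log2 fold change 2.74 with SE 0.15, adjusted p 4.29e-06). SPRY2 had 220, 199 and 211 against 81.4, 68.9 and 75.7 TPM (1.43, SE 0.12, edgeR adjusted p 3.94e-05), and it too lies on chromosome 13. LRIG1, which promotes the removal of ERBB receptors, was higher (0.91, edgeR adjusted p 0.00292), as was SPRY1 (0.75, edgeR adjusted p 0.0226), the latter in 3 of 6 leave-one-out fits. The 1 lower gene was DUSP5, a phosphatase of ERK (-1.29, SE 0.22, edgeR adjusted p 0.00232), whereas DUSP6 did not pass (0.11, edgeR adjusted p 0.639).

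Insulin-like growth factor binding proteins and coreceptors differed in both directions. Of 22 genes, 19 were tested, 9 were higher and 5 lower. The share called was 73.7%, beside 20.6% of all genes tested. The median log2 fold change was 0.53, beside -0.013 for all genes tested. IGFBP3, which binds the growth factors outside the cell, had 140, 124 and 115 TPM in ALDH_High and 26.3, 25.8 and 27.1 TPM in ALDH_Low (edgeR log2 fold change 2.21 with SE 0.14, adjusted p 7.56e-06). IGFBP4 had 255, 232 and 213 against 573, 723 and 611 TPM (-1.49, SE 0.14, edgeR adjusted p 7.33e-05), and IGFBP7 (-0.99, edgeR adjusted p 0.00294) and IGFBP6 (-1.50, edgeR adjusted p 0.0123) were lower as well. IGFBP6 lost its call without ALDH_High replicate 2 (adjusted p 0.0518) or ALDH_Low replicate 1 (0.0516).

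Among the heparan sulfate proteoglycans, which hold growth factors at the cell surface, GPC6 (log2 fold change 2.30, edgeR adjusted p 3.13e-05), GPC4 (2.53, edgeR adjusted p 0.000186) and SDC2 (2.01, edgeR adjusted p 0.000213) were higher, and SDC1 was lower (-1.12, edgeR adjusted p 0.00452). GPC6 lies on chromosome 13, and the part of the chromosome 13 and 20 medians in the values of IRS2, SPRY2, GPC6 and PLCG1 was not tested.

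The genes whose log2 CPM ran most closely with a receptor over the 6 libraries were sought among 11029 genes averaging 5 CPM or more. For ERBB3 they were FAM89A (Pearson's r 0.9998), HLA-B (0.9985) and MICAL1 (0.9982). For EGFR they included KIAA1671 (0.9975) and ZHX1 (0.9971). All 6 libraries share the split into sorted groups, so these values describe that split and are given without a test.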

How the data were processed

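RNA-seq libraries (3 ALDH_High, 3 ALDH_Low) were made from 500 ng of total RNA with a stranded mRNA kit, per the labels' protocols. The submitters' processing notes name FastQC 0.11.3, STAR 2.5.1b, HTSeq 0.6.1, DESeq2 and GRCh38, without roles. The authors deposited whole-number counts, taken here from their values as rounded estimated counts: in each library 133 to 177 genes had a count of 0 beside a TPM above 0. The authors also deposited TPM values, with gene lengths not given in the sources used here, and log2 coefficients of a DESeq2 model of 5 groups, per the file headers. The design assumed raw counts and provided for rounded estimates, so its test was kept.

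Genes were filtered with filterByExpr (17047 kept), scaled with TMM and tested with edgeR 4.0.16 (glmQLFTest, two-sided), without the replicate number; the 261 rows with a gene ID but no name stayed in. The SE was derived from the fold change and the F statistic. The exact two-sided permutation p on log2 CPM was 0.1, the smallest that 3 against 3 libraries allow, for all 7 called receptors. The fit was tested on simulated data. Gene positions are from GENCODE 44 (GRCh38).

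The 10 members and the gene lists were chosen with earlier results of these data known. Of each list, up to 4 higher and 4 lower genes of smallest adjusted p with non-overlapping groups were named, plus every tested ligand. IRS1, DUSP6, FGFR2, FGFR3, EPHB3, EPHA4, EPHB1, EPHB6, the markers and the untested genes were named after their values were seen. Replicate numbers were not taken as pairs, a borderline choice: deviations of same-numbered libraries from the group means correlated at 0.15, 0.076 and 0.11 in log CPM, under the limit of 0.1 in 1 pair. On log2(CPM + 0.5) they were 0.19, 0.13 and 0.11. Alternatives were other scalings, filters, DESeq2 1.42.0, limma 3.58.1 on TPM, a replicate block and leaving out each library. A gene that the naming rule would add is not reported here.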

Additional observations from a re-analysis of the deposited data

How the results depend on the processing

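Of the 7 called receptors, ERBB3, EGFR, MET and IGF1R kept their direction and call under all 15 alternatives; AXL and FGFR1 were called under 10 and PDGFRB under 13, with unchanged direction. Over the members, 122 of 135 alternative values kept direction and side of the threshold, 12 lost the call and 1 changed sign. With limma on log2(TPM + 1) and no TPM filter, 4 receptors, 12 other receptor tyrosine kinases, 5 ligands, 3 adaptors, 3 inhibitors and 2006 of all genes were called. With the TPM filter the other receptor tyrosine kinases called were 11 (pseudocount 1) and 10 (0.1), and the adaptors 4 with either. The limma settings tested other sets of genes than the 17047 of edgeR, and their shares of all genes are not given here. These counts are therefore a description only, and the cause of the lower counts was not tested. An adjusted p below 0.01, stricter by construction, gave 1930 genes. By CPM without length, AXL made up 55.8% of the 10 receptors in ALDH_Low.

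Among the 9 tested receptors and 46 other genes followed through the alternatives, leaving out 1 library turned the sign of 6, none of them called. The log2 fold change of ERBB2 ran from -0.00054 (without ALDH_High replicate 1) to 0.22, that of PROS1 from -0.19 to 0.023 (without ALDH_High replicate 1) and that of NRG1 from -0.0036 (without ALDH_High replicate 2) to 0.36. EREG ran from -0.64 to 0.29, with 0.071 without ALDH_High replicate 1, 0.019 without ALDH_High replicate 2 and 0.29 without ALDH_Low replicate 1. Without that last library NRG4 was 0.41 (lowest value -1.44) and FGF23 0.36 (lowest -0.45). Leaving out a library gave 5 to 7 called receptors, 17 to 21 other receptors, 6 to 10 ligands, 6 to 9 adaptors, 4 to 8 inhibitors, 11 to 14 binding proteins and coreceptors, and 2488 to 4221 genes in all.

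The replicate block left all 7 receptors called and gave 22 other receptors, 9 ligands, 7 adaptors, 8 inhibitors, 16 binding proteins and coreceptors, and 3748 genes. The pairing was borderline: same-numbered libraries correlated at 0.15, 0.076 and 0.11 in log CPM, with 1 pair under the limit of 0.1, but at 0.19, 0.13 and 0.11 on log2(CPM + 0.5), with all above it. Upper-quartile scaling gave 1644 higher and 1931 lower genes in place of 1838 and 1675, and left the receptors at 2 higher and 5 lower. Depth limits KIT, HGF, IGF1 and IGF2, which were too low to test.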
